A study of Mus musculus with 2 samples.

Results

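The genes described here are 34 genes that are widely used to mark astrocytes, the glial cells that surround synapses and blood vessels. They were taken as a fixed list of names. A gene counted as measured when at least 1 probe set on the arrays was annotated to it alone, and each gene is represented by its brightest such probe set, judged by the mean of the P4H-TM KO and WT values. All 34 of 34 listed genes were measured, of 18193 genes on the arrays. The samples were cortex of P4H-TM KO (P4h-tm-/-) and WT C57BL/6J mice, male littermates that were 2.5 months old and naive. P4H-TM KO mice lack transmembrane prolyl 4-hydroxylase, and how the allele was made is not given in the sources used here. RNA of 4 mice was pooled per genotype and hybridized to 1 Affymetrix mouse genome array, so there were 2 arrays in all. No difference below therefore has a replicate check, no p-value or SD between animals is given, and the number of arrays limits the precision.

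Astrocytes clear glutamate from the synaptic cleft, turn it into glutamine and return it to neurons. They also buffer potassium, exchange bicarbonate and water at the vessel wall, hold the glycogen of the brain, and make lipids and lipid carriers. After injury they become reactive, a state known for more of the intermediate filaments GFAP and vimentin. The study compared these cortices to find which genes change without P4H-TM, an enzyme of the endoplasmic reticulum membrane that can act on the hypoxia-inducible factor HIF, and then turned to cultured astrocytes, which were not analysed here.

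Values are log2 expression as the authors normalized it, and a difference is P4H-TM KO minus WT on that scale. The targeted gene P4htm had 9.10 in P4H-TM KO and 11.05 in WT, a difference of −1.95, and its other probe set differed by −1.64. The difference had a median of 0 over all 18193 genes. Among markers of other cells, those of the choroid plexus, an epithelium that secretes cerebrospinal fluid, had higher values in P4H-TM KO for 13 of 13 measured genes. Their mean log2 level was 9.23 in P4H-TM KO and 7.77 in WT, with a median difference of 1.58. Meninges markers had higher values for 11 of 12 genes, with mean levels of 8.41 in P4H-TM KO and 7.98 in WT and a median of 0.385. Oligodendrocyte markers had lower values for 12 of 12, with mean levels of 11.34 in P4H-TM KO and 11.59 in WT and a median of −0.26. In bulk tissue, fewer cells of a type and less RNA per cell cannot be told apart.

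The astrocyte genes were close to equal on both arrays. Their median difference was −0.03, with 19 of 34 lower in P4H-TM KO, 13 higher and 2 equal. Of all genes, 49% were lower and 46% higher. All 34 members had a mean signal at or above 6.385, the median over all probe sets, and of the 11730 genes with such a signal 45.2% were lower and 50.1% higher, with a median of 0.01. A difference of at most 0.1 in either direction was found for 23 of the 34 members, or 67.6%, against 69.9% of the genes with that signal. The middle of the list, from its lower to its upper quartile, spanned −0.07 to 0.04, against −0.06 to 0.07 for those genes.

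Only 2 members differed by at least 1.2-fold, which is 0.263 on the log2 scale. Etnppl was lower in P4H-TM KO and Fabp7 was higher. Of the genes with sufficient signal, 1.83% were at least 1.2-fold lower and 2.9% at least 1.2-fold higher, and over all genes the shares were 4.91% and 4.12%. The count of 1 of 34 in each direction is thus near the background. The other 32 members lay between −0.22 and 0.24.

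**Figure D1:**
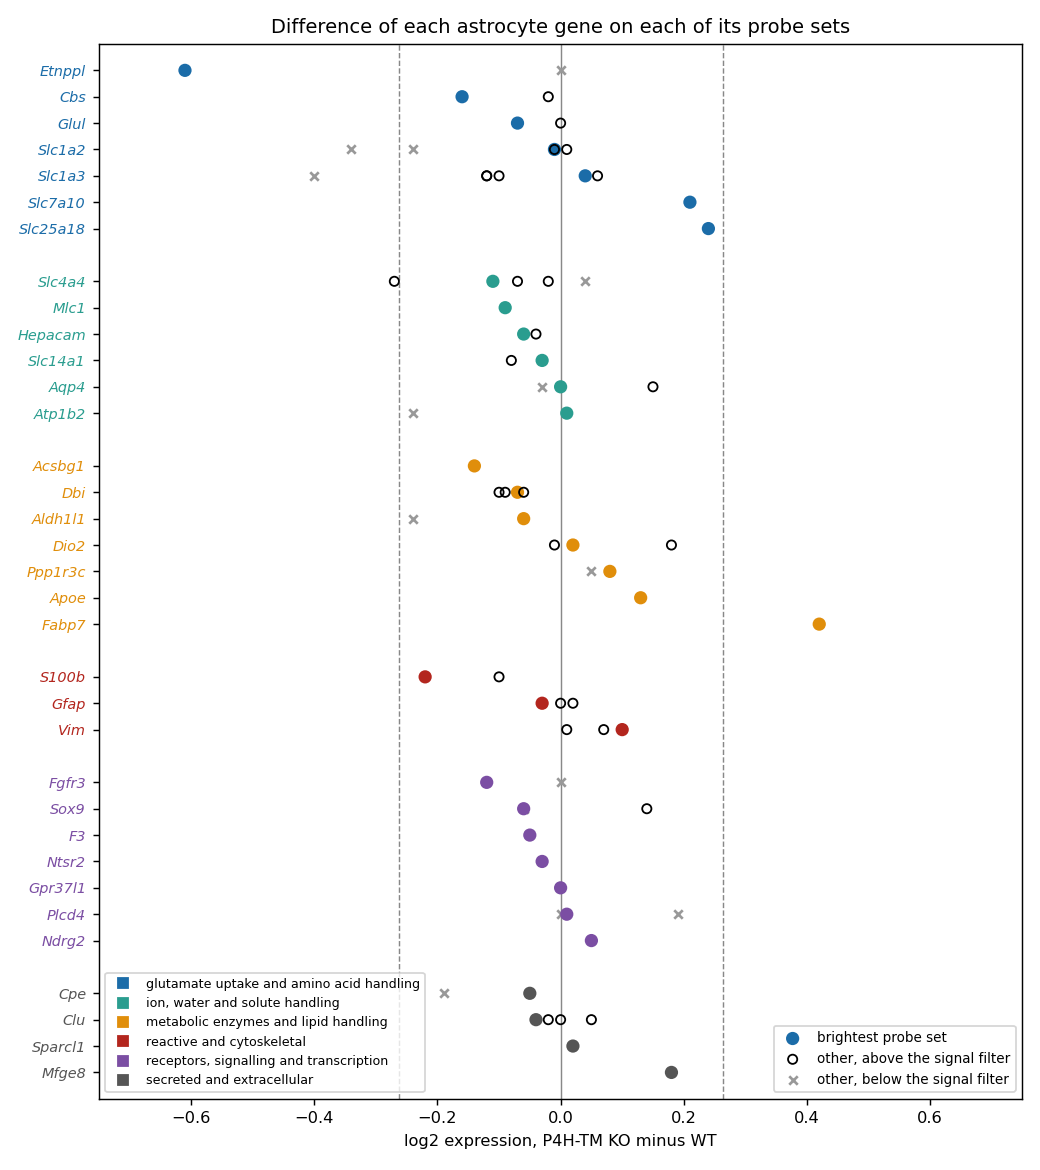
Difference of each astrocyte gene in log2 expression, P4H-TM KO minus WT, grouped by role. Filled points are the probe set that stands for the gene, open circles its other probe sets above the signal filter and crosses those below it, and dashed lines mark 1.2-fold. There is 1 array per genotype and so no error bar, and filled points past 1.2-fold are those of Etnppl (−0.61) and Fabp7 (0.42).

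Etnppl encodes ethanolamine-phosphate phospho-lyase, an enzyme of the aminotransferase family that breaks down phosphoethanolamine and is made in the brain mainly by astrocytes. It had 7.75 in P4H-TM KO and 8.36 in WT, a difference of −0.61 or 1.53-fold, which made it the 5th lowest of the 11730 genes with sufficient signal. It was the only member past 1.5-fold, a size that 0.0512% of those genes reached downward and 0.631% upward. A second probe set of Etnppl had 4.80 on both arrays, below the signal filter, so the difference rests on 1 probe set. The mean of both was −0.305.

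Fabp7 encodes the brain fatty acid-binding protein, which carries long-chain fatty acids in radial glia, astrocytes and oligodendrocyte precursors. It had 11.80 in P4H-TM KO and 11.38 in WT, a difference of 0.42 or 1.34-fold, and was the 140th highest of the genes with sufficient signal. It has 1 probe set, so no second one could be compared. Markers of oligodendrocyte precursors, which also make this protein, were lower for 4 and higher for 4 of 8 genes, with mean levels of 9.13 in both P4H-TM KO and WT and a median of 0.01. Choroid plexus and meninges markers were higher on the same array, and their part in the Fabp7 difference was not tested.

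The probe sets of a gene did not always give the same difference. Over the 15 members with at least 2 probe sets above the signal filter, 43 probe sets in all, the pooled SD of the difference was 0.07, against 0.10 over 5101 genes. With dimmer probe sets included, it was 0.126 over 22 members and 0.147 over 9010 genes. This spread describes the measurement on this pair of arrays and not the variation between mice. The 34 members were also brighter than genes at large, with mean levels of 10.84 in P4H-TM KO and 10.86 in WT. Over all genes the mean was 7.60 on both arrays, and the part of signal in the smaller spread of the members was not tested. Fabp7 has no second probe set, and Etnppl none above the filter, so neither is among the 15. Of the 15 members, 6 had every such probe set lower in P4H-TM KO, 1 had every one higher, 6 had probe sets of both signs, and 2 had a probe set at 0 among them.

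**Figure D2:**
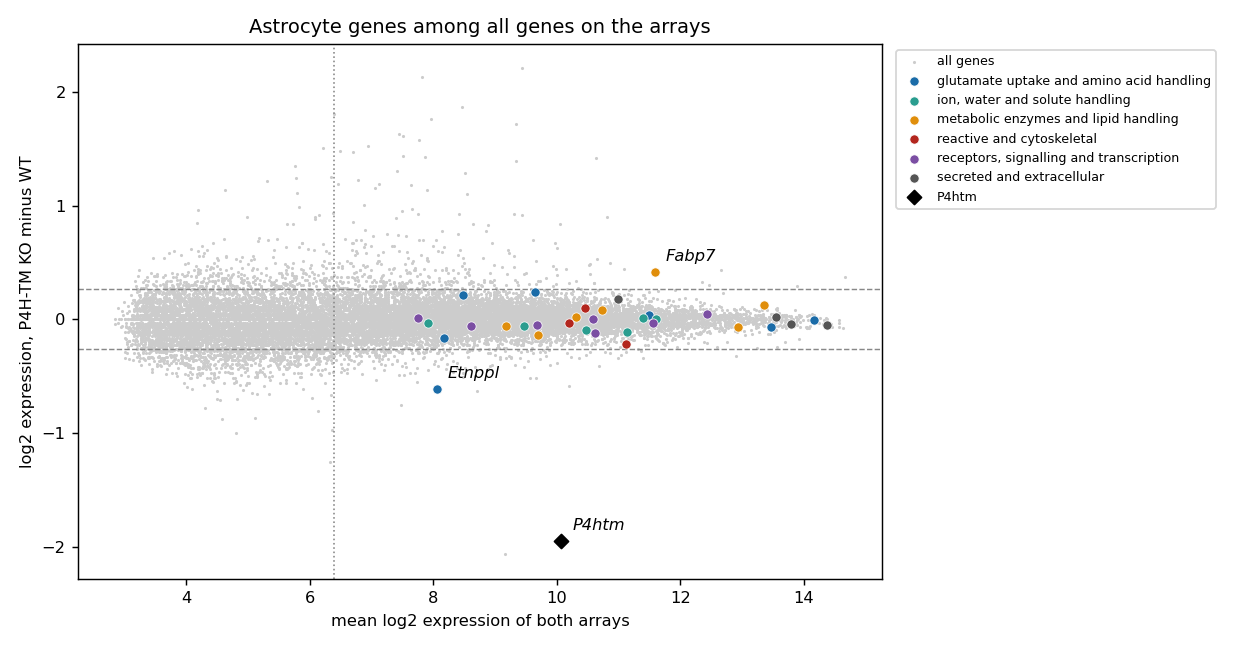
Difference in log2 expression, P4H-TM KO minus WT, against the mean log2 expression of both arrays, with 1 point per gene. Coloured points are the 34 astrocyte genes by role, the diamond is P4htm, the dotted line is the signal filter at 6.385 and dashed lines mark 1.2-fold. Most astrocyte genes lie inside the grey band, with Etnppl (−0.61) below it and Fabp7 (0.42) above it.

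Promoter windows are shown for these 2 genes and for Ppp1r3c, a metabolic member described as a HIF target in human cell lines, because P4H-TM can act on HIF. They come from RefSeq on GRCm38.p6 and run from 250 bases before the start of the gene to 50 bases after it, 5′ to 3′. Windows were found for 27 of the 34 members. Capitals mark the HIF core, ACGTG or GCGTG on either strand, in the windows of Etnppl (chr3:130617198-130617497, plus strand) and Ppp1r3c (chr19:36736555-36736854, minus strand). In the window of Fabp7 (chr10:57784673-57784972, plus strand) they mark TTGGCNNNNNGCC, on either strand, a form of the site of the nuclear factor I proteins of glia.
Etnppl: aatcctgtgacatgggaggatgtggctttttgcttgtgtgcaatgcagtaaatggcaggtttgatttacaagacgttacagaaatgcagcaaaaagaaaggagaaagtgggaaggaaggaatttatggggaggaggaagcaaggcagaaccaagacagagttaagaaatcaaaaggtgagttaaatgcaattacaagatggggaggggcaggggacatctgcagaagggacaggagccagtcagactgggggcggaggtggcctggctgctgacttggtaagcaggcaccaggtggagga
Fabp7: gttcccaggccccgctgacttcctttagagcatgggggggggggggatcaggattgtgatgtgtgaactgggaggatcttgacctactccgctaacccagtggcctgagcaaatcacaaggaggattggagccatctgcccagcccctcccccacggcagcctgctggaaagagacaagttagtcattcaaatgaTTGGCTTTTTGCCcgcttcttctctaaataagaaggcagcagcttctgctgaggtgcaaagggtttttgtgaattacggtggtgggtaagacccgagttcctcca
Ppp1r3c: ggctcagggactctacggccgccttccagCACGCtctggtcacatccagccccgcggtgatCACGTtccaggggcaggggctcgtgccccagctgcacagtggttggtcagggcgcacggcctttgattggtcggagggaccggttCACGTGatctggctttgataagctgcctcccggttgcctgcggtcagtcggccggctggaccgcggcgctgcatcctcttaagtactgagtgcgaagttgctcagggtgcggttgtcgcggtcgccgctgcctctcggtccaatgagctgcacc
The Etnppl window is all in lower case because the HIF core did not occur in it, nor in a second window of that gene. The Ppp1r3c window held 4 matches in 3 separate stretches, as the palindrome CACGTG, 104 to 99 bases before the start, matches on both strands. The Fabp7 match lies 55 to 43 bases before the start.

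The HIF core occurred in a window of 11 of the 27 members, or 40.7%, against 46.7% of 27025 genes. The 11 members were Acsbg1, Cbs, Dbi, Fgfr3, Hepacam, Mfge8, Ndrg2, Ntsr2, Ppp1r3c, Slc1a3 and Slc4a4. They had a median difference of −0.06, and the 16 members without a match one of −0.005. The nuclear factor I letters, chosen after the windows were read, occurred in 2 members, Cbs and Fabp7, and in 1.57% of all genes. With that choice, the count of 2 says nothing of an excess. A match is a string of letters and no evidence of binding. Ppp1r3c itself, which encodes a subunit that targets protein phosphatase 1 to glycogen, had 10.77 in P4H-TM KO and 10.69 in WT, a difference of 0.08, and a dimmer probe set differed by 0.05.

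The main glutamate transporter gene had nearly the same value on both arrays. Slc1a2, the transporter GLT-1 that takes up most of the glutamate of the forebrain, had 14.16 in P4H-TM KO and 14.17 in WT. Its 3 probe sets above the signal filter differed by −0.01, 0.01 and −0.01, and 2 dim ones by −0.34 and −0.24. The other astrocyte glutamate transporter, GLAST, is encoded by Slc1a3, which had 11.51 in P4H-TM KO and 11.47 in WT on its brightest probe set, a difference of 0.04. That probe set is of a kind that can match other transcripts, and of 4 further ones above the filter 3 differed by −0.12, −0.12 and −0.10 and the dimmest by 0.06, so the sign for Slc1a3 depended on the probe set. A probe set of Slc1a3 below the filter differed by −0.40.

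The enzyme that makes glutamine from glutamate, glutamine synthetase, is encoded by Glul. It had 13.44 in P4H-TM KO and 13.51 in WT, a difference of −0.07, and its other probe set differed by 0. Slc25a18, which encodes a mitochondrial glutamate carrier, had 9.77 in P4H-TM KO and 9.53 in WT, a difference of 0.24 that fell just short of 1.2-fold. Slc7a10, which encodes the transporter Asc-1 for small neutral amino acids such as glycine and D-serine, had 8.58 in P4H-TM KO and 8.37 in WT, a difference of 0.21. Both of these genes have 1 probe set. Cbs, which encodes cystathionine beta-synthase of the transsulfuration pathway, had 8.09 in P4H-TM KO and 8.25 in WT, which differ by −0.16, and its dimmer probe set differed by −0.02. With Etnppl, placed here for its enzyme family, these 7 genes of glutamate and amino acid handling had a median of −0.01. Of the 7, 4 were lower and 3 higher, and their range of −0.61 to 0.24 was the widest of any role. Without Etnppl, the lowest was Cbs at −0.16, and the metabolic and lipid genes, at −0.14 to 0.42, ranged wider. Averaging the probe sets of each gene gave a median of −0.09.

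The genes of ion, water and solute handling differed little. Of 6, 4 were lower in P4H-TM KO, 1 was higher and 1 equal, with a median of −0.045 and a range of −0.11 to 0.01. Aqp4, the water channel of the end feet on vessels, had 11.61 in both P4H-TM KO and WT, although a second probe set was higher by 0.15, at 10.49 in P4H-TM KO and 10.34 in WT. Slc4a4, which encodes the sodium bicarbonate cotransporter NBCe1, had 11.08 in P4H-TM KO and 11.19 in WT, a difference of −0.11. Its 4 probe sets above the signal filter were all lower, by −0.27 to −0.02. Mlc1 and Hepacam encode partner membrane proteins that are needed for ion and water balance, and both are altered in a human leukoencephalopathy with cysts. Mlc1 had 10.43 in P4H-TM KO and 10.52 in WT, a difference of −0.09. Hepacam had 9.43 in P4H-TM KO and 9.49 in WT, a difference of −0.06, with −0.04 on its other probe set. Atp1b2, the beta 2 subunit of the sodium pump, differed by 0.01, at 11.40 in P4H-TM KO and 11.39 in WT. A probe set of Atp1b2 below the signal filter had 6.17 in P4H-TM KO and 6.41 in WT, a difference of −0.24. Slc14a1, a urea transporter gene, had 7.90 in P4H-TM KO and 7.93 in WT, and both of its probe sets were lower, by −0.03 and −0.08.

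Metabolic and lipid genes had a median of 0.02, with 3 of 7 lower and 4 higher, and ran from −0.14 to the 0.42 of Fabp7. Acsbg1, which encodes an acyl-CoA synthetase for very long fatty acids, was at the low end, with 9.63 in P4H-TM KO and 9.77 in WT, a difference of −0.14 on its only probe set. Dbi, the acyl-CoA binding protein, also known as an inhibitor of diazepam binding, had 12.90 in P4H-TM KO and 12.97 in WT, and its 4 probe sets were all lower, by −0.10 to −0.06. Aldh1l1, the folate enzyme used as a general astrocyte marker, had 9.14 in P4H-TM KO and 9.20 in WT, a difference of −0.06. A probe set of Aldh1l1 below the signal filter differed by −0.24. Apoe, the main apolipoprotein of the brain, had 13.42 in P4H-TM KO and 13.29 in WT, a difference of 0.13 on 1 probe set. Apoe is also made by other cells, microglia and choroid plexus among them. Microglia markers were lower for 7 of 11 genes with a median of −0.03 (mean levels of 9.28 in P4H-TM KO and 9.29 in WT) and choroid plexus markers were higher, and their part in the Apoe value was not tested. Dio2, the deiodinase that activates thyroid hormone in glia, had 10.32 in P4H-TM KO and 10.30 in WT, and its other probe sets differed by −0.01 and 0.18.

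**Figure D3:**
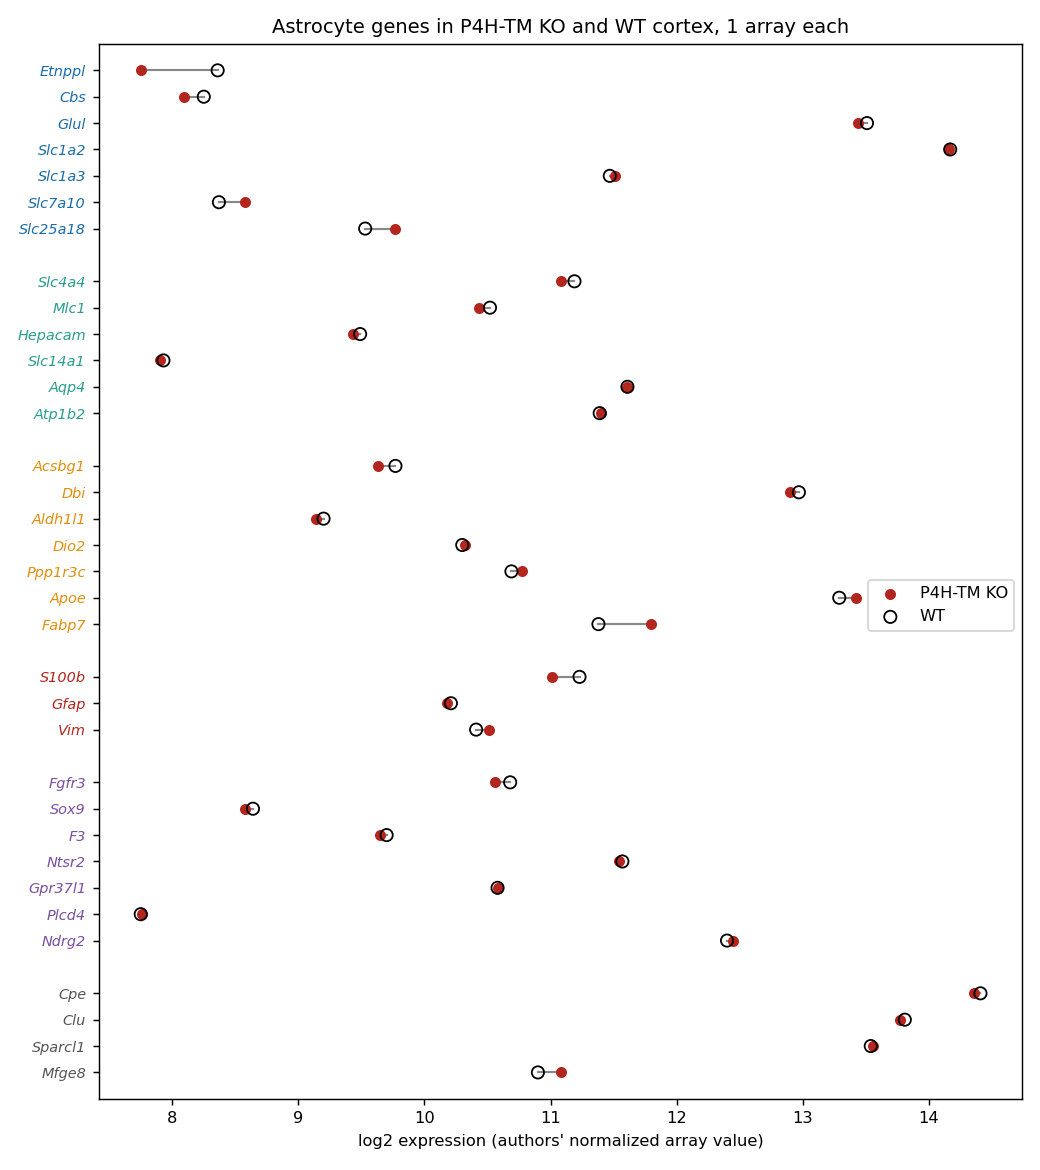
Log2 expression of each of the 34 astrocyte genes on the P4H-TM KO array (red points) and the WT array (open circles), 1 row per gene, with a line joining the genotypes and colours of the names by role. Levels of different genes come from different probes and are not comparable with each other, and there is 1 array per genotype and so no error bar. The points overlap or nearly so for most genes, and the longest lines are those of Etnppl (7.75 in P4H-TM KO and 8.36 in WT) and Fabp7 (11.80 in P4H-TM KO and 11.38 in WT).

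The filament genes of reactive astrocytes differed little. Gfap had 10.18 in P4H-TM KO and 10.21 in WT, a difference of −0.03, and its other probe sets differed by 0 and 0.02. Vim had 10.51 in P4H-TM KO and 10.41 in WT, a difference of 0.10, and all 3 of its probe sets were higher, by 0.01 to 0.10. Vimentin is also made by endothelial, meningeal and ependymal cells. Of these, endothelial markers had a median of 0.07 over 9 genes (mean levels of 8.85 in P4H-TM KO and 8.76 in WT), ependyma markers had one of −0.10 over 11 (7.80 in P4H-TM KO and 7.89 in WT) and meninges markers one of 0.385, and their part in the Vim value was not tested. S100b, which encodes a calcium-binding protein of astrocytes and some oligodendrocytes, had the second lowest difference of the list, with 11.01 in P4H-TM KO and 11.23 in WT, a difference of −0.22. Its other probe set had 10.71 in P4H-TM KO and 10.81 in WT, a difference of −0.10. Oligodendrocyte markers were lower on the same array, with a median of −0.26, and their part in the S100b value was not tested.

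Receptor, signalling and transcription genes had a median of −0.03, with 4 of 7 lower, 2 higher and 1 equal, and a range of −0.12 to 0.05. Fgfr3, a fibroblast growth factor receptor, was lowest, with 10.56 in P4H-TM KO and 10.68 in WT. Sox9, a transcription factor of astrocyte nuclei, had 8.58 in P4H-TM KO and 8.64 in WT, a difference of −0.06, and a second probe set differed by 0.14, so its sign depended on the probe set. The neurotensin receptor gene Ntsr2 had 11.54 in P4H-TM KO and 11.57 in WT, and the orphan receptor gene Gpr37l1 had 10.58 on both arrays. F3, which encodes the coagulation initiator tissue factor, differed by −0.05. Plcd4, a phospholipase C gene that acts upstream of calcium release, differed by 0.01 and Ndrg2 by 0.05.

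Secreted proteins had a median of −0.01 over 4 genes, with 2 lower and 2 higher. Clu, which encodes the chaperone clusterin, had 13.77 in P4H-TM KO and 13.81 in WT, and its 4 probe sets differed by −0.04 to 0.05. Cpe, the prohormone-processing carboxypeptidase E that neurons also make, differed by −0.05, and by −0.19 on a probe set below the signal filter. Sparcl1, which encodes the synapse-promoting protein hevin, differed by 0.02. Mfge8, which encodes a bridging protein for engulfment that vessel cells make too, had the highest difference here, with 11.08 in P4H-TM KO and 10.90 in WT, a difference of 0.18 on 1 probe set. Mural cell markers had a median of 0.08 over 9 genes (mean levels of 8.79 in P4H-TM KO and 8.66 in WT), and their part in the Mfge8 value was not tested.

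Set side by side, the medians of the roles spanned −0.045 for ion and water handling to 0.02 for metabolism. They were −0.01 for glutamate and amino acid handling and −0.03 for the 3 reactive and cytoskeletal members, Gfap, Vim and S100b. A longer list of genes induced in reactive astrocytes, described below, had a median of 0.05 over 31 measured genes. With probe sets averaged, the medians of the roles ran from −0.09 for glutamate and amino acid handling to 0.063 for metabolism. No test of a difference between roles is possible with 1 array per genotype. The members lie on 16 chromosomes. Hepacam and Acsbg1 are on chromosome 9, as P4htm is, and had differences of −0.06 and −0.14.

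Other astrocyte genes were centred on 0. In a list of 51 further astrocyte genes, 49 were measured, of which 23 were lower in P4H-TM KO, 24 higher and 2 equal, with a median of 0. At 1.2-fold, 2 were lower and 1 was higher, against 4.91% and 4.12% of all genes. Over the genes with sufficient signal these shares were 1.83% and 2.9%. The metallothionein gene Mt2 had 12.75 in P4H-TM KO and 13.07 in WT (−0.32), and Daam2, a Wnt signalling gene that oligodendrocytes also use, had 7.61 in P4H-TM KO and 7.91 in WT (−0.30, and −0.37 on its other probe set). At the high end were Kcnj16, a potassium channel subunit gene with 7.92 in P4H-TM KO and 7.49 in WT (0.43, and 0.12 on its other probe set), and the cytochrome P450 gene Cyp4f14, with 6.54 in P4H-TM KO and 6.28 in WT (0.26).

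Genes induced in reactive astrocytes were more spread. Of 34 listed, 31 were measured and 19 had sufficient signal, and 12 were lower, 18 higher and 1 equal, with a median of 0.05. At 1.2-fold, 3 were lower and 6 higher, against 4.91% and 4.12% of all genes. With sufficient signal these were 1 and 4, against 1.83% and 2.9% of the genes with that signal. Hspb1, a small heat shock protein gene, had 9.58 in P4H-TM KO and 9.02 in WT, a difference of 0.56, with 0.59 on its other probe set. Cd44, a hyaluronan receptor gene, had 7.02 in P4H-TM KO and 6.45 in WT, which differ by 0.57, but another of its 4 probe sets had −0.16. Ptgs2, which encodes cyclooxygenase 2 and is also made by active neurons, had 9.35 in P4H-TM KO and 9.72 in WT, a difference of −0.37, with −0.34 on its other probe set. Cd109 had 7.41 in P4H-TM KO and 7.66 in WT, a difference of −0.25, with 0.11 on its other probe set. The other genes past 1.2-fold with sufficient signal were Serping1, a complement inhibitor gene, with 8.06 in P4H-TM KO and 7.62 in WT (0.44 on 1 probe set), and Osmr, the oncostatin M receptor gene, with 7.22 in P4H-TM KO and 6.87 in WT (0.35, with probe sets down to −0.06). They and the next 2 genes were picked out after their values were seen. Serpina3n, widely used to mark reactive astrocytes, had 8.15 in P4H-TM KO and 8.19 in WT. Lcn2, another such marker, was below the signal filter, at 4.14 in P4H-TM KO and 4.84 in WT. Many of these genes are also made by meningeal and vascular cells. Meninges markers were higher for 11 of 12 genes, 8 of them by at least 1.2-fold. Endothelial markers had a median of 0.07, with 6 of 9 higher, 1 lower and none past 1.2-fold. Mural markers had a median of 0.08, with 5 of 9 higher, 3 lower and 2 at least 1.2-fold higher. The part of these cells in the reactive genes was not tested.

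In the glutamate and glutamine cycle beyond the members, 14 of 20 measured genes were higher and 6 lower, with a median of 0.03. Of all genes, 46% were higher and 49% lower. At 1.2-fold, 2 of the 20 were higher and 0 lower, against 4.12% and 4.91% of all genes. Over the genes with sufficient signal these shares were 2.9% and 1.83%. The 2 genes were Slc7a11, the cystine and glutamate exchanger gene, with 8.36 in P4H-TM KO and 8.05 in WT (0.31, and 0.26 on its other probe set), and Slc38a3, a glutamine transporter gene, with 8.79 in P4H-TM KO and 8.50 in WT (0.29, and 0.35 on its other probe set). The lowest were Abat, which breaks down GABA, at −0.09, with 0.04 on its other probe set, and pyruvate carboxylase, Pcx, at −0.07. Genes of glycogen and lactate had a median of 0.015 over 14 genes, 7 lower and 7 higher, running above the filter from Slc2a1, the glucose transporter gene, at −0.19 and Ppp1r3d at −0.12 to the glycogen phosphorylase gene Pygb at 0.07 and the lactate transporter gene Slc16a1 at 0.09.

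A list of genes for anchoring the water channel and of other end foot genes had a median of 0.02 over 11 genes, with 5 lower and 6 higher. The highest with sufficient signal were Sntb1, a syntrophin gene, with 7.79 in P4H-TM KO and 7.05 in WT, and the utrophin gene Utrn, at 0.21, which on another probe set was −0.02. The 6 probe sets of Sntb1 ranged from −0.15 to 0.91. At the low end were Gja1, the main astrocyte connexin gene, at −0.10, with other probe sets up to 0.18, and the chloride channel gene Clcn2 at −0.05. Below the filter, Trpv4, a cation channel gene that choroid plexus epithelium also uses, had 6.31 in P4H-TM KO and 5.32 in WT, and was picked out after its value was seen. Choroid plexus markers were higher on the same array, and their part in the Trpv4 value was not tested.

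**Figure D4:**
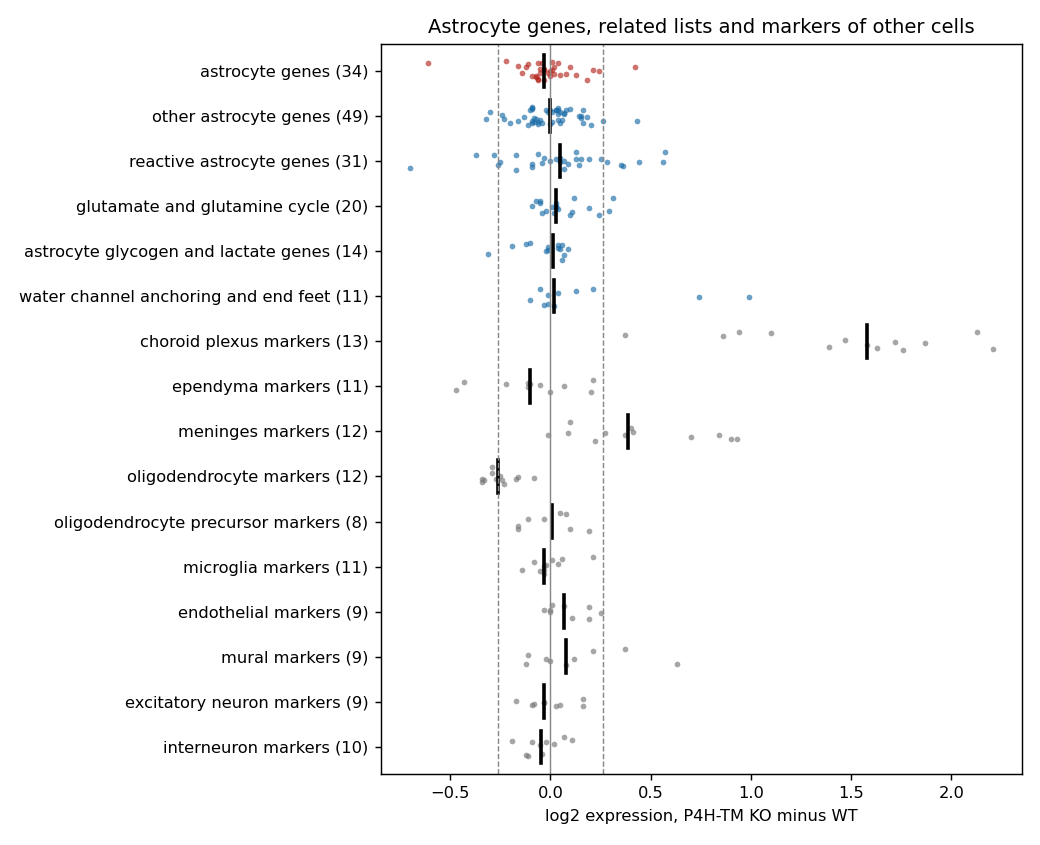
Difference in log2 expression, P4H-TM KO minus WT, with 1 point per measured gene (number in brackets) for the 34 astrocyte genes (red), related lists (blue) and markers of other cells (grey). Black bars are medians, dashed lines mark 1.2-fold, and points are moved at random up or down within a row so that they can be told apart. The astrocyte median lies at −0.03, against 1.58 for choroid plexus, 0.385 for meninges and −0.26 for oligodendrocyte markers.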

How the data were processed

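The authors pooled RNA of 4 mice per genotype, hybridized it to Affymetrix mouse genome arrays, read out intensities in the GeneChip Operating System, and used GenePattern for normalization. RMA appears in the submitters' processing notes without a version. RMA corrects the background, makes the arrays' distributions alike and summarizes the probes of each probe set, so an overall shift between arrays would be removed. The deposited values are log2 expression with 2 decimals, from 2.69 to 14.91. Of 45101 probe sets, 34958 carry 1 gene symbol in the platform annotation and 932 carry several. Those with 1 symbol include 13 controls, which were left out. Another 9160 carry none, controls aside. Symbols of 18145 of 18193 genes are in the RefSeq table of GRCm38.p6.

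A gene took its brightest probe set with 1 symbol, and the difference was P4H-TM KO minus WT. Genes past 1.2-fold or 1.5-fold were counted, with no test, as there is 1 array per genotype. The signal filter was the median over probe sets, 6.385. Members, role groups and lists were written from general knowledge, and the members and lists were chosen with earlier results of these data known. Every member is named, and of each related list the 2 highest and 2 lowest genes above the filter; exceptions are stated. Counting was tested on simulated data. Alternatives were probe sets averaged, probe sets named _s_at, _x_at or _a_at left out, the second brightest probe set, the signal filter, centring, and removal of the intensity trend by loess (span 0.3). The work used matplotlib 3.10.9, statsmodels 0.14.6, pandas 2.3.3, numpy 2.4.6 and Python 3.11.15.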

Additional observations from a re-analysis of the deposited data

How the results depend on the processing

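The median difference of the astrocyte genes (−0.03) lay between −0.0325 and −0.005 under the 6 other settings. Of 93 alternative values for medians and counts, 84 stayed near the main one (counts within 1.5 times, medians within the error expected from the spread between probe sets). With the second brightest probe set, which only 22 members have, 11 members were lower in P4H-TM KO in place of 19, and 0 were at least 1.2-fold lower and 0 higher, as Fabp7 has no second probe set and that of Etnppl was equal. That setting also gave medians of −0.05 for metabolic members in place of 0.02, 0.03 for other astrocyte genes in place of 0 and 0.08 for glycogen and lactate genes in place of 0.015; the cause was not tested. With probe sets averaged, glutamate and amino acid members had −0.09 in place of −0.01. Counting only differences over 0.1, 6 members were lower, and at 1.5-fold 0 were higher. For single genes, 173 of 192 alternative values lay within 0.10 of the main one. That total includes settings that could not move a value, such as the signal filter, which all 35 of these genes pass. With the second brightest probe set, 11 of 23 values moved further than that. None of the genes past 1.2-fold changed sign, but Etnppl went to 0 with that setting, and Fabp7 has no second probe set. Centring changed nothing, because the median over all genes was 0. No paired analysis was possible because there is 1 array per genotype, and for the same reason no array could be left out.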

Other observations

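Of the metallothionein genes, which encode small metal-binding proteins, Mt1 and Mt2 had lower values in P4H-TM KO and Mt3 differed little. They come from the list of other astrocyte genes, in which 23 were lower and 24 higher, with a median of 0. Mt1 had 13.59 in P4H-TM KO and 13.79 in WT, a difference of −0.20, with −0.09 on its other probe set. Mt2 had 12.75 in P4H-TM KO and 13.07 in WT, a difference of −0.32 on its only probe set, and Mt3 had 11.21 in P4H-TM KO and 11.26 in WT, a difference of −0.05. Of the astrocyte connexins, Gjb6 had 10.44 in P4H-TM KO and 10.67 in WT, a difference of −0.23 on 1 probe set, and Gja1 had 12.98 in P4H-TM KO and 13.08 in WT, a difference of −0.10. That is the brightest of its 6 probe sets, which ranged from −0.13 to 0.18 with a mean of −0.03. Mt1, Mt3 and Gjb6 were picked out after their values were seen. These differences have no replicate check.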
